A study of Homo sapiens with 12 samples.

Results

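Named antisense transcripts are genes whose symbol ends in -AS and a number, after the name of a gene on the opposite DNA strand, which is called the sense gene here. They were chosen by symbol and by their reads, at least 20 in at least 1 of 12 RNA-seq libraries, which 314 of the 979 such symbols reached, among 26364 genes in the deposited tables. Of the other symbols, 205 had no read in any library and 460 had 1 to 19 reads at most. Just inside the limit were 10 transcripts with a highest count of exactly 20, such as *COL18A1-AS2* and *GSN-AS1*, and just outside it were 11 with 19, such as *DARS-AS1* and *SCOC-AS1*. The limit was reached only in a CPT library by 67 transcripts and only in a library without CPT by 15. These 67 had to be high with CPT to be included, so counts for CPT are also given for the 247 transcripts with 20 reads in a library without CPT, a choice that favours lowered ones in turn.

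The libraries hold total RNA of HCT116 cells, a line from a human colorectal carcinoma, 1 library per condition, where a condition joins a cell line, an inhibitor and a TNFα time. The cell lines were HCT116 WT and p65-deficient clone 32, a single-cell clone that the study made with CRISPR-Cas9 against *RELA*, the gene of the NF-κB subunit p65 (the sample labels read shRNA p65). Cells received no inhibitor, the TOP1 inhibitor CPT (camptothecin) or the TOP2 inhibitor ICRF193, each at 5 µM for 2 h. TNFα at 20 ng/mL was additionally given for 1 h, or not given (0 h), so the total time with inhibitor may differ between 0 h and 1 h. No condition has a replicate, so libraries that differ in 1 factor were compared as pairs, 4 for each inhibitor, 3 for TNFα in WT cells and 6 for the cell line, and the p-values measure the spread between such pairs. Values in 4 libraries are always listed in the order WT at 0 h, WT at 1 h, p65-deficient at 0 h and p65-deficient at 1 h of TNFα.

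Antisense transcripts are made from the strand opposite to a gene. Many start near that gene's own start and run away from it, since promoters without a TATA box often fire in both directions, while others start inside or beyond the gene and run through it. TOP1 cuts a single strand of DNA to release the twist that builds up around RNA polymerase, and CPT traps it on the DNA, which slows elongation most on long genes. ICRF193 blocks TOP2, which cuts both strands, in a closed form on DNA.

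Most antisense transcripts could be placed against their sense gene by the hg19 exon coordinates in the files. Of the 314, 93 were divergent, with a start before the sense start and no overlap, 80 overlapped the sense gene at the 5′ ends, 56 lay inside the sense gene, 56 overlapped it at the 3′ ends, 11 contained it and 8 were convergent without overlap. The table held no gene of the sense name for 9, and *HNRNPU-AS1* lay on the same strand as *HNRNPU*. Exonic length ranged from 321 to 8048 bases with a median of 1927.5. The kit keeps the strand of the RNA, but the command in the file headers counted reads without it and left out reads on exons of several genes. Reads from an antisense transcript and from the unspliced RNA of a gene across it can therefore not be told apart. Of the exonic bases of the 314, 9.34% lay on exons of the other strand, 37.1% in introns of the other strand and 53.6% outside genes of the other strand. A group of 87 transcripts lay wholly outside such genes, and their counts are given beside those of all.

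Per library, 16300210 to 22051046 reads were counted in WT cells and 8101212 to 20524958 in p65-deficient cells, where ICRF193 at 0 h and all 3 libraries at 1 h were the shallow ones. *RELA* had 694 to 909 normalized counts (reads over the size factor that DESeq2 gave each library) in WT and 548 to 673 in p65-deficient libraries, lower in all 6, which does not show whether the p65 protein was lost. Of 9 colon epithelial markers, 6 had at least 20 reads in a library, with a summed level of 39327 to 52804 normalized counts, and *CDX1* was at 0. Of the markers of other cells, 1 of 4 of leukocytes (summed level 201 to 352, *CD3E* at 0), 1 of 3 of endothelium (4.15 to 22.4) and 1 of 4 of fibroblasts (74.6 to 196) had 20 reads.

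The promoters are shown first, since position relative to the sense start sorted the CPT results. RefSeq windows of 300 bases (250 before and 50 after the annotated start, GRCh38.p14) were found for 241 of the 314 transcripts, with a median GC content of 65.7% against 58.3% in all 27305 windows and a median of 24 CpG against 14. On either strand, GGGCGG stood in 58.5% of the 241 windows and 44.6% of all windows, CCAAT in 32.8% and 35.7%, TATAAA in 4.98% and 12%, TGACGTCA in 2.49% and 1.98%, and TGANTCA, in which N is any base, in 4.98% and 7.76%. The 101 windows of transcripts raised by CPT held GGGCGG in 59.4%, CCAAT in 24.8% and TATAAA in 4.95%, and the 22 windows of lowered ones in 54.5%, 50% and 4.55%. These are matches of letters in a fixed window, not sites, and they were not tested.

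The search for shared promoters did not cover every divergent couple. In 46 of those searched, the starts stood 20 to 250 bases apart in RefSeq, so that a single stretch holds both promoters. *RNF139-AS1*, with a larger antisense minus sense difference (3.37) than any couple printed, is not among the 46. No couple on the chromosome of *RNF139-AS1* is among them. The divergent *OTUD6B-AS1*, *YTHDF3-AS1*, *AZIN1-AS1*, *RHPN1-AS1* and *FAM83H-AS1*, the last lowered by CPT, are therefore missing too. Their absence does not show how far apart their starts stood, so the 46 do not stand for all chromosomes. Of these 46, the first 5 printed have the largest difference between an antisense transcript raised and a sense gene lowered by CPT. Then come all 3 of the 46 whose antisense transcript was lowered. This choice was made after the values were seen. Each runs from the sense start to the antisense start, 5′ to 3′ on the strand of the antisense transcript, and capitals mark a match to GGGCGG or, in *SAP30L-AS1*, also to CCAAT, on either strand. They lie at chr7:105014142-105014204, chr10:17643919-17644150, chr5:36876695-36876768, chr4:183099200-183099256, chr20:44210772-44210959, chr4:67701156-67701277, chr5:154445823-154445996 and chrX:49879357-49879483 of GRCh38.p14, in the order listed, with the antisense strand minus except for *OSER1-AS1* and *UBA6-AS1*. These starts come from RefSeq and differ by some bases from those of the hg19 files.

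*KMT2E-AS1*: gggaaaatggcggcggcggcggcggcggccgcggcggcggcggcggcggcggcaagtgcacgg
*STAM-AS1*: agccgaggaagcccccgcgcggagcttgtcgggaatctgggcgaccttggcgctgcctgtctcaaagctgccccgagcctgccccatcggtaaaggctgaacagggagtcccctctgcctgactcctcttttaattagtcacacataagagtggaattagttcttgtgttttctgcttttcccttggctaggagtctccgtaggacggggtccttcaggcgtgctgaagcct
*NIPBL-AS1*: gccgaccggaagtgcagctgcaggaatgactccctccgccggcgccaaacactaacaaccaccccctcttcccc
*WWC2-AS2*: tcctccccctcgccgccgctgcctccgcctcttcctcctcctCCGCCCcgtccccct
*OSER1-AS1*: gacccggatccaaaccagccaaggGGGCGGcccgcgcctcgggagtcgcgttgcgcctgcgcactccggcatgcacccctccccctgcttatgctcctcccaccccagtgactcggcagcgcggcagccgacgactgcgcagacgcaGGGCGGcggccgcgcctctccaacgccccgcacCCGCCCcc
*UBA6-AS1*: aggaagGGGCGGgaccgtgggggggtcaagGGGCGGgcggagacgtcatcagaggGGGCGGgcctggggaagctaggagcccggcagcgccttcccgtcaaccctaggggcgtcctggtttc
*SAP30L-AS1*: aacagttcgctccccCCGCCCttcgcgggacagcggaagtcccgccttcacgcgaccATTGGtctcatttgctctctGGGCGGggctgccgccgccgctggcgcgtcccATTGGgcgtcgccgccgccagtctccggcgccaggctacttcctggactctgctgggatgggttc
*USP27X-AS1*: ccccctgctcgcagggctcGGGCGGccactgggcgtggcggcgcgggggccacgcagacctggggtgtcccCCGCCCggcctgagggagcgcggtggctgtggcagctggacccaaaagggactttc

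Of the 46 stretches, 30 held GGGCGG, 12 CCAAT and 1 TATAAA, and the median GC content was 71.9%. It was 72.8% in the 22 stretches whose antisense transcript was raised by CPT and 69.0% in the other 24. *KMT2E-AS1*, *STAM-AS1* and *NIPBL-AS1*, all raised, had none of the searched motifs between the starts.

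Antisense transcripts were scarce. They took 0.191% to 0.210% of all counted reads in the 8 libraries without CPT and 0.225% to 0.234% in the 4 with CPT, and the ranges did not overlap. Since the 67 that reached 20 reads only with CPT add to the second range by their selection, the share of the other 247 is given too, 0.188% to 0.206% without CPT and 0.216% to 0.225% with CPT. Per kilobase of exon, the mean normalized count had a median of 15.7 over the 314 and was highest for *LRRC75A-AS1* at 4194, a host transcript of small nucleolar RNAs. Next came *THAP9-AS1* at 398, *EPB41L4A-AS1*, another such host, at 376, *OIP5-AS1*, a well conserved long non-coding RNA, at 354, *FGD5-AS1* at 292 and *NCBP2-AS2*, which encodes a small protein, at 230.0. *RBM12B-AS1*, *FAM83H-AS1*, *PITPNA-AS1* and *ZFPM2-AS1* followed between 159.5 and 173, close enough that their order changed between libraries. The remaining 304 spread down to 1.86 per kilobase.

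The most abundant transcript changed little, while some of the next ones rose or fell with CPT. *LRRC75A-AS1* had 10402, 11182, 9838 and 9691 normalized counts without inhibitor, 11159, 11273, 10783 and 10797 with CPT and 10632, 11057, 9446 and 9924 with ICRF193 (chromosome 17), and the CPT change was 0.09 ± 0.04 (SE, adjusted p = 0.0991) on the log2 scale. *EPB41L4A-AS1* rose with CPT by 0.41 ± 0.07 (SE, adjusted p = 0.00082) and *FGD5-AS1* by 0.32 ± 0.05 (SE, adjusted p = 0.000269). *OIP5-AS1* stood at 0.01 (adjusted p = 0.915). *RBM12B-AS1* rose by 0.43 and *FAM83H-AS1* fell by 0.22, both at an adjusted p under 0.05. Both calls were lost without the WT pair at 0 h (0.29 and −0.19), and that of *FAM83H-AS1* also without the WT pair at 1 h (−0.20).

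**Figure D1:**
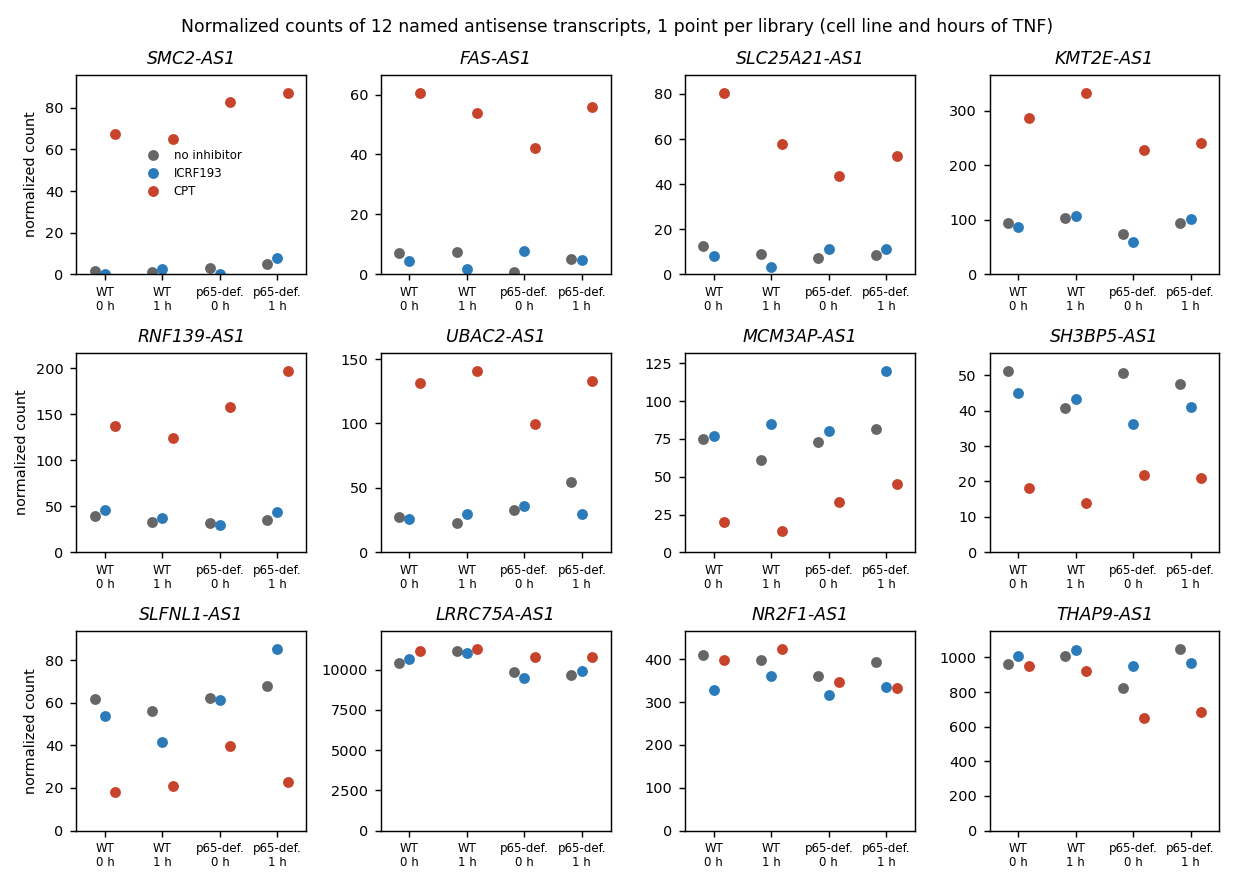
Normalized counts (vertical axis, from 0) of 12 antisense transcripts in the 12 libraries, 1 point per library, by cell line and hours of TNFα (horizontal axis) and coloured by inhibitor. In the panels from *SMC2-AS1* to *UBAC2-AS1* the 4 CPT points lie above all 8 others, in those of *MCM3AP-AS1*, *SH3BP5-AS1* and *SLFNL1-AS1* they lie below them, and *LRRC75A-AS1*, *NR2F1-AS1* and *THAP9-AS1* show small changes.

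CPT raised many antisense transcripts. Of 307 tested by edgeR, 137 rose (44.6%) and 28 fell (9.12%) at an adjusted p under 0.05, against 23.2% raised and 25.1% lowered of the 13993 genes tested, with a median log2 fold change of 0.39 against 0.02. Among those with 20 reads in a library without CPT, 88 of 246 rose (35.8%) and 28 fell (11.4%), with a median of 0.21. Of the 61 tested transcripts that reached 20 reads only with CPT, 49 rose and 0 fell, as their selection favours. Outside genes of the other strand, 44 of 86 rose and 3 fell (median 0.56), and with 20 reads without CPT 34 of 72 rose and 3 fell (median 0.40). A shift towards higher counts was also present in long intergenic RNAs: 43 of 125 tested LINC symbols rose and 16 fell, with a median of 0.21. The sense genes had the opposite balance, 53 raised and 95 lowered of 284, with a median of −0.02. In WT cells alone, without the p65-deficient pairs, 140 antisense transcripts rose and 27 fell of 310. DESeq2 called 104 raised and 15 lowered of the 307. *COL18A1-AS2*, at the limit of inclusion, had 8, 14, 5 and 6 reads without inhibitor and 16, 8, 20 and 7 with CPT, overlapping groups (0.71 ± 0.46, SE).

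**Figure D2:**
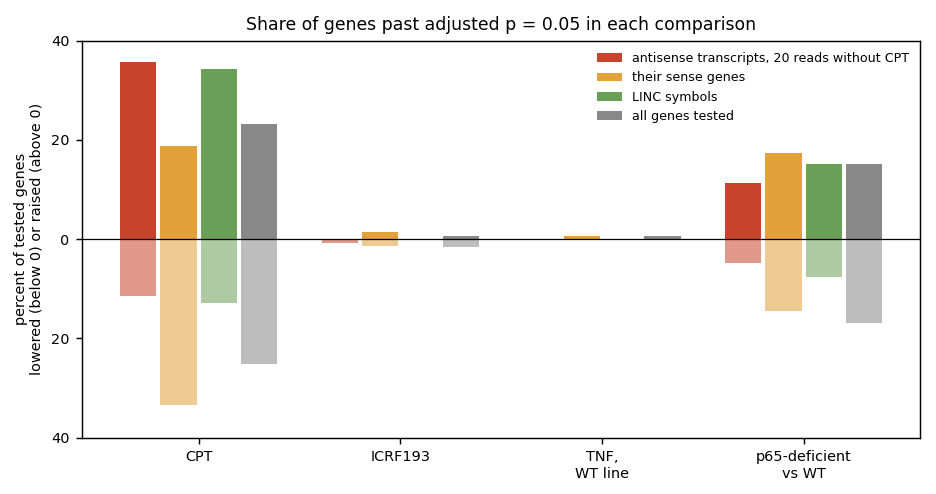
Percent of tested genes past an adjusted p of 0.05 (vertical axis: raised above 0, lowered below 0) for CPT, ICRF193, TNFα in WT cells and p65-deficient against WT cells, in antisense transcripts with 20 reads in a library without CPT, their sense genes, LINC symbols and all genes. With CPT, 35.8% of these antisense transcripts and 34.4% of LINC symbols rose, against 18.7% of the sense genes and 23.2% of all genes. Only the antisense set has this read limit, and the sense genes are those of all 314 antisense transcripts. Without the limit, 44.6% of the antisense transcripts tested rose.

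The largest rise was that of *SMC2-AS1* (chromosome 9, 106842305 to 106854755, minus strand), which was included only through its CPT libraries, so its change is a description with no test. It starts before *SMC2*, a condensin subunit gene (at −1786 bp from its start), and has no exonic base inside a gene of the other strand. Its reads were 2, 1, 4 and 3 without inhibitor, 0, 3, 0 and 5 with ICRF193 and 81, 89, 106 and 50 with CPT. The log2 ratios of CPT to no inhibitor were 5.68 (95% interval 3.78 to 8.75), 6.32 (3.81 to 11.6), 4.88 (3.48 to 6.78) and 4.10 (2.47 to 6.42), by exact Clopper-Pearson intervals that cover counting error only and treat reads as independent molecules. The fitted change was 5.06 ± 0.29 (SE), and *SMC2* itself stood at 0.00 ± 0.05 (SE, adjusted p = 0.996), with 1357, 1399, 1403 and 1489 normalized counts without inhibitor and 1466, 1348, 1405 and 1449 with CPT.

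*FAS-AS1* (chromosome 10, 90751181 to 90752732, minus strand) had 11, 9, 1 and 3 reads without inhibitor and 73, 74, 54 and 32 with CPT, a change of 3.38 ± 0.31 (SE), and it too was included only through its CPT libraries. It is a single exon of 1552 bases wholly in an intron of *FAS*, the gene of a death receptor, and starts 2444 bp after the *FAS* start, where reads of unspliced *FAS* RNA would be counted with it. *FAS* fell by 0.28 ± 0.09 (SE, adjusted p = 0.0253), with 291, 327, 287 and 255 normalized counts without inhibitor and 277, 258, 219 and 208 with CPT. Every CPT library of *FAS-AS1* was above every library without CPT, as its selection favours, whereas the *FAS* levels overlapped.

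Of the next 8 transcripts in the ranking, 4 overlapped the 5′ ends of their sense genes. *SLC25A21-AS1* among them, and *DOCK9-AS2* and *ADAMTSL4-AS1* among the others, reached 20 reads only with CPT and are given without a test. *SLC25A21-AS1*, across the start of a mitochondrial carrier gene, had 12.5, 8.93, 7.02 and 8.50 normalized counts without inhibitor and 80.6, 57.6, 43.7 and 52.4 with CPT, a change of 2.65 ± 0.20 (SE) with log2 ratios in the pairs from 2.62 to 2.69, and *SLC25A21* stood at 0.08 ± 0.22 (SE, adjusted p = 0.793). *ZNF252P-AS1* rose by 2.50 ± 0.22 (SE, adjusted p = 3.85e-06) and *SMAD5-AS1*, at the gene of a BMP signal transducer, by 2.26 ± 0.22 (SE, adjusted p = 9.26e-06). *UBAC2-AS1* had 27.6, 22.7, 33 and 54.4 normalized counts without inhibitor and 131, 141, 99.9 and 133 with CPT, a rise of 1.96 ± 0.20 (SE, adjusted p = 1.33e-05), while *UBAC2* stood at −0.01 ± 0.06 (SE, adjusted p = 0.891). In all 4 the CPT libraries lay above every other library, which the choice of the transcripts raised most favours. *SMAD5* alone among their sense genes was called, fallen by 0.17.

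The remaining transcripts among the 10 raised most were *DOCK9-AS2* (2.31 ± 0.28, SE), divergent to the gene of a CDC42 exchange factor, *ZNF295-AS1* (2.15 ± 0.27, SE, adjusted p = 6.1e-05), which had no gene of its sense name in the table, *RNF139-AS1* (2.08 ± 0.14, SE, adjusted p = 7.27e-07) and *ADAMTSL4-AS1* (2.04 ± 0.23, SE). *ADAMTSL4-AS1* overlaps its sense gene at the 3′ end and has 994 of its 1036 exonic bases in introns of the other strand. Its sense gene rose too, by 1.45 ± 0.18 (SE, adjusted p = 5.89e-05), from 17.7, 17.9, 21.7 and 18.7 to 48.2, 40.9, 64 and 61.1 normalized counts.

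Of the 28 transcripts lowered by CPT, 9 lay inside the sense gene, 8 overlapped its 3′ end, 4 were divergent and 3 overlapped the 5′ end. *MCM3AP-AS1* (chromosome 21, 47649145 to 47671615, plus strand) starts 56163 bp from the start of *MCM3AP*, a gene of mRNA export, and had 74.8, 60.9, 73 and 81.6 normalized counts without inhibitor, 19.9, 13.9, 33.6 and 45.4 with CPT and 76.9, 85.1, 80.5 and 120.0 with ICRF193. It fell by 1.49 ± 0.21 (SE, adjusted p = 0.000171), and the CPT libraries lay below all others. *SH3BP5-AS1*, 87210 bp from the start of its sense gene, had 51.2, 40.6, 50.5 and 47.6 normalized counts without inhibitor and 18.3, 13.9, 21.8 and 21 with CPT and fell by 1.37 ± 0.18 (SE, adjusted p = 0.000111), while *SH3BP5* stood at −0.05 ± 0.11 (SE, adjusted p = 0.736). *SLFNL1-AS1*, which contains *SLFNL1*, fell by 1.27 ± 0.20 (SE, adjusted p = 0.00042).

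*DPP9-AS1*, inside a dipeptidyl peptidase gene, fell by 1.17 ± 0.32 (SE, adjusted p = 0.0106), but the pairs ranged from −3.13 to −0.26, the lowest on 3 reads, and the call was lost without the WT pair at 0 h (−0.90). *RBM5-AS1*, inside the gene of a splicing factor, fell by 1.05 ± 0.25 (SE, adjusted p = 0.00489) together with *RBM5* (−0.83 ± 0.09, SE, adjusted p = 1.9e-05). *CKMT2-AS1*, *LHX4-AS1* and *HNRNPU-AS1* fell by 0.86, 0.75 and 0.67. Divergent transcripts were the exception among the 10 lowered most: *SAP30L-AS1*, at a gene of the SIN3A repressor complex, fell by 1.03 ± 0.23 (SE, adjusted p = 0.00401) and *UBA6-AS1*, at a gene of ubiquitin activation, by 0.79 ± 0.14 (SE, adjusted p = 0.000622). *UBA6-AS1* lies outside genes of the other strand and had 136, 111, 138 and 131 normalized counts without inhibitor and 75.6, 84.6, 71.8 and 61.1 with CPT, with every CPT library below all others, while 3246 of the 3450 exonic bases of *SAP30L-AS1* lie in introns of another gene. Larger falls on few reads, outside the ranking because their mean was under 20 reads, were those of *ZBTB20-AS1* (−3.98), *EGFR-AS1* (−3.94) and *AFAP1-AS1* (−3.20). These reached 20 reads only without CPT, so their selection favours a fall, and they were chosen after their values were seen. *EGFR-AS1* had 32, 24, 23 and 11 reads without inhibitor and 2, 1, 2 and 0 with CPT.

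The CPT response was higher in transcripts that overlap the sense gene at the 5′ ends or diverge from it than in those inside it or at its 3′ end. The median log2 fold change was 0.92 for transcripts overlapping at the 5′ ends (48 raised and 3 lowered of 78), 0.45 for divergent ones (44 and 4 of 91), 0.25 inside the sense gene (20 and 9 of 55) and 0.09 for those overlapping at the 3′ ends (14 and 8 of 55). With 20 reads without CPT, the medians were 0.48 (27 and 3 of 56), 0.36 (35 and 4 of 79), −0.06 (5 and 9 of 36) and 0.06 (12 and 8 of 51), so the median inside the sense gene changed sign and fell below that of the 3′ class. Of the 5′ class, 24 of 80 had reached 20 reads only with CPT, of the divergent class 14 of 93, inside the sense gene 20 of 56 and of the 3′ class 4 of 56. With all transcripts, the median of the 5′ class was above that of the 3′ class in each of the 4 pairs, by 0.80 ± 0.13 (SD, n = 4 pairs), and that of the divergent class by 0.44 ± 0.06. These differences include what the selection adds. With 20 reads without CPT they were 0.52 ± 0.04 and 0.36 ± 0.04, again in each pair, and the median inside the sense gene was above that of the 3′ class in 1 of 4 pairs. The exact sign-flip test over 4 pairs cannot go below p = 0.125, and classes were compared over pairs, since transcripts of a library are not replicates.

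Medians of the sense genes lay closer together. Their medians were −0.01 at the 5′ class (14 raised and 25 lowered of 77), −0.06 at the divergent class (19 and 35 of 92), 0.05 for genes that contain their antisense transcript (6 and 15 of 52) and 0.01 at the 3′ class (13 and 17 of 52). The classes also differed in what reads from the other strand could add: 87.5% of exonic bases lay in introns of the other strand for transcripts inside the sense gene, 62.6% at the 3′ class, 28.4% at the 5′ class and 10.9% at the divergent class, where 86.9% lay outside genes. The share of unspliced sense RNA in these counts was not tested.

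**Figure D3:**
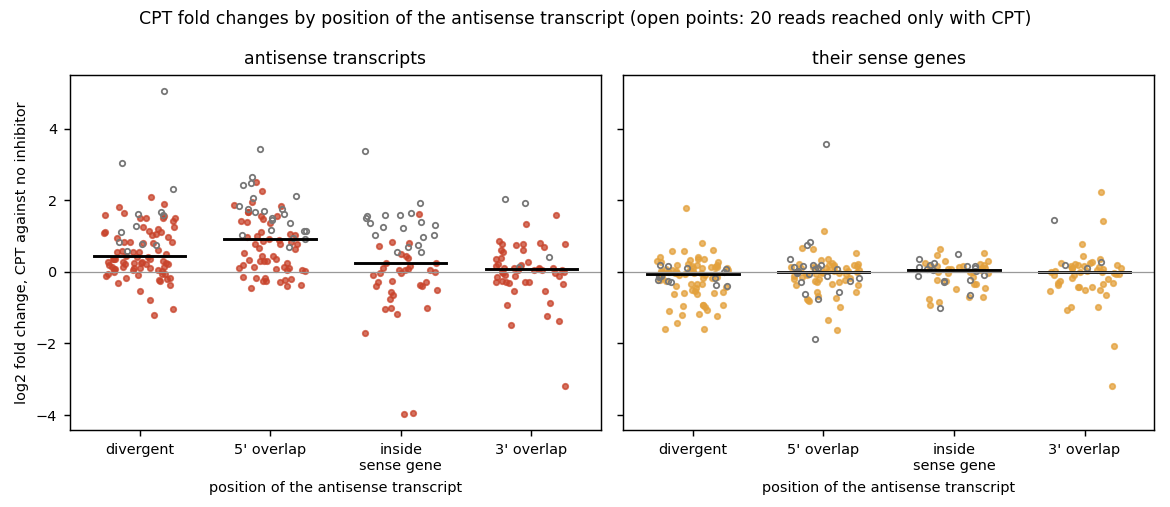
Log2 fold change with CPT against no inhibitor (vertical axis) of antisense transcripts (left) and their sense genes (right), by position of the antisense transcript, 1 point per gene. Open points mark transcripts that reached 20 reads only with CPT, and on the right their sense genes, and black lines are medians: 0.45, 0.92, 0.25 and 0.09 on the left, all between −0.06 and 0.05 on the right.

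Among transcripts that start at or after the sense start, the change fell with distance from it. In bins set after the data were seen, the median was 0.91 up to 1 kb (50 tested, 31 raised, 2 lowered), 0.90 from 1 to 5 kb (42 tested, 25 and 1), 0.38 from 5 to 20 kb (28 tested, 12 and 3), 0.10 from 20 to 50 kb (34 tested, 10 and 4) and 0.01 beyond 50 kb (52 tested, 10 and 12). With 20 reads without CPT it was 0.52, 0.38, 0.12, 0.01 and −0.01 (37, 24, 22, 27 and 48 tested). Spearman's rho was taken over a smaller set, without convergent transcripts and those that contain the sense gene. Between distance and change it was −0.43 over 188 transcripts and −0.40 over the 143 with 20 reads without CPT, described without a p since the transcripts share the same libraries. A longer span of the transcript itself went with a lower change (rho −0.39 over 307), and its exonic length less so (−0.12).

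**Figure D4:**
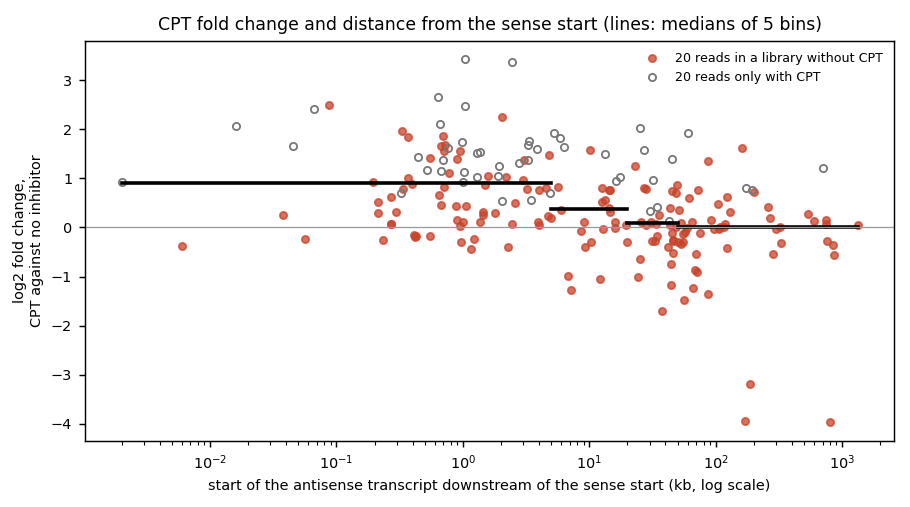
Log2 fold change with CPT (vertical axis) of each antisense transcript that starts at or after the sense start, against the distance of its start from the sense start (kb, log scale). Filled points reached 20 reads without CPT, open points only with CPT, and black lines are the medians of the 5 bins, from 0.91 within 1 kb to 0.01 beyond 50 kb.

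The change of an antisense transcript with CPT told little of the change of its sense gene. In 290 couples with reads in every library compared, the median change was 0.39 for the antisense transcript and −0.01 for the sense gene, and the antisense minus sense difference had a median of 0.55, from 0.34 to 0.66 in the 4 pairs. It was positive in all 4 pairs in 144 couples and negative in all 4 in 37. The 144 include transcripts that reached 20 reads only with CPT, whose selection favours a positive difference. With 20 reads without CPT the median difference was 0.30 over 230 couples, positive in all 4 pairs in 98 and negative in all 4 in 37. Outside genes of the other strand the median difference was 0.70 over 85. Spearman's rho between both changes was 0.02 over 283 couples, a description only. By calls, of these 283, the antisense transcript rose and the sense gene fell in 46 couples, both rose in 27, both fell in 14, and the antisense transcript fell while the sense gene rose in 1. Neither was called in 68, only the antisense transcript in 54 (raised) and 10 (lowered), and only the sense gene in 28 (raised) and 35 (lowered). Each side was often called by itself, with 44.6% of antisense transcripts raised and 33.5% of sense genes lowered. Whether the counts of couples differ from what such shares give was not tested.

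The divergent couples named next were chosen from these data for large differences between an antisense transcript raised and a sense gene lowered. They are examples, and their opposite changes follow from that choice. *KMT2E-AS1* (chromosome 7, 104650989 to 104654588, minus strand) had 94.5, 102, 74.4 and 93.5 normalized counts without inhibitor and 286, 333, 228 and 241 with CPT, a rise of 1.58 ± 0.10 (SE, adjusted p = 4.13e-07). *KMT2E*, a chromatin regulator gene, had 454, 489, 472 and 537 normalized counts without inhibitor and 224, 285, 184 and 231 with CPT, a fall of 1.09 ± 0.10 (SE, adjusted p = 7.02e-06). No CPT library overlapped the libraries without CPT for either gene.

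*NIPBL-AS1* rose by 1.80 ± 0.11 (SE, adjusted p = 3.01e-07), from 69.6, 65.8, 83.5 and 105 to 281, 231, 297 and 300.3 normalized counts, while *NIPBL*, the cohesin loader gene, fell by 0.54 ± 0.05 (SE, adjusted p = 1.35e-05), from 1115, 1093, 974 and 1229 to 809.9, 757, 655 and 821. *STAM-AS1*, *WWC2-AS2* and *OSER1-AS1*, whose promoters are among those printed, rose by 1.90, 1.57 and 1.18, and their sense genes fell by 0.58, 0.62 and 0.93. *RNF139-AS1*, divergent to a ubiquitin ligase gene, had 40.0, 32.5, 31.6 and 35.7 normalized counts without inhibitor and 138, 125, 158 and 197 with CPT. *RNF139* fell by 1.24 ± 0.06 (SE, adjusted p = 4.9e-08), and the difference between both was 3.37 ± 0.38 (SD, n = 4 pairs).

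*JMJD1C-AS1*, across the start of a histone demethylase family gene, rose by 1.11 ± 0.18 (SE, adjusted p = 0.000496), while *JMJD1C* fell by 1.62 ± 0.08 (SE, adjusted p = 7.09e-08), from 2641, 2673, 2397 and 2848 to 1047, 938, 678 and 796 normalized counts. At the other end, the differences were −1.90 ± 0.40 for *MMP24-AS1*, −1.63 ± 1.18 for *DPP9-AS1*, −1.34 ± 0.62 for *MCM3AP-AS1*, −1.32 ± 0.28 for *SH3BP5-AS1* and −1.06 ± 0.56 for *SAP30L-AS1* (SD, n = 4 pairs). *MMP24-AS1* itself rose (0.36 ± 0.08, SE, adjusted p = 0.00469), but *MMP24*, a matrix metalloproteinase gene, rose more (2.22 ± 0.18, SE, adjusted p = 2.44e-06), from 29.5, 28.4, 23.2 and 20.4 to 111, 98.5, 158 and 122 normalized counts.

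**Figure D5:**
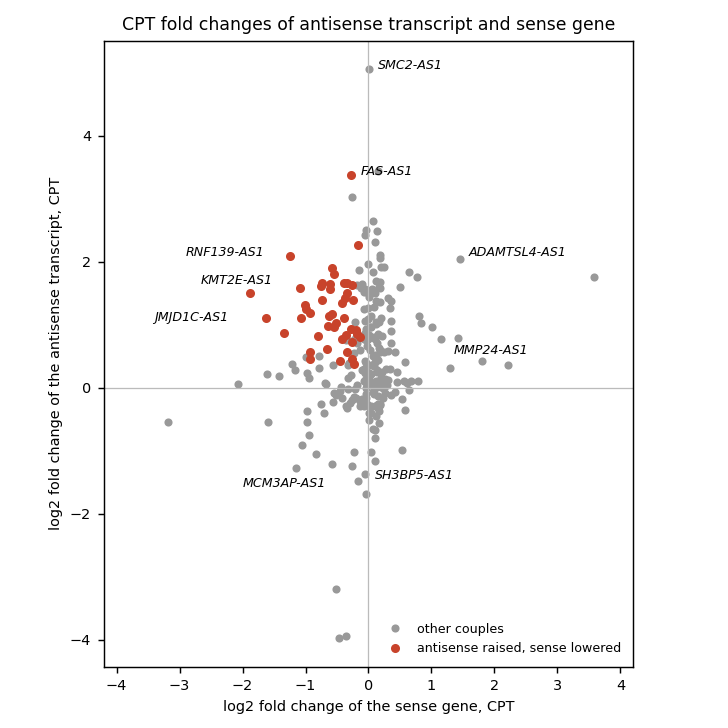
Log2 fold change with CPT of each antisense transcript (vertical axis) against that of its sense gene (horizontal axis), 1 point per couple. Red points mark the couples in which the antisense transcript rose and the sense gene fell past an adjusted p of 0.05, and most couples spread along the vertical axis, with *SMC2-AS1* at 5.06 above an *SMC2* value of 0.00.

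ICRF193 changed few of these transcripts. Of 271 tested, 0 rose and 2 fell by edgeR, with a median of −0.04, against 0.587% raised and 1.58% lowered of all 13631 genes tested, and an unadjusted p under 0.05 was reached by 20. *NR2F1-AS1*, divergent to the gene of an orphan nuclear receptor, had 409, 399, 362 and 394 normalized counts without inhibitor and 329, 361, 317 and 335 with ICRF193, a fall of 0.22 ± 0.06 (SE, adjusted p = 0.0417), below its partner in each pair. *NR2F1* fell as well, by 0.30 ± 0.04 (SE, adjusted p = 3.91e-07). *USP27X-AS1*, at a deubiquitinase gene, fell by 1.27 ± 0.34 (SE, adjusted p = 0.0319) on 28, 13, 26 and 11 reads without inhibitor and 6, 12, 3 and 3 with ICRF193, and by 1.21 ± 0.34 (SE) with CPT. It reached 20 reads only in libraries without inhibitor, so its selection favours a fall. *USP27X* stood at −0.20 ± 0.14 (SE, adjusted p = 0.635) with ICRF193. Neither ICRF193 call held in DESeq2, which called 0, without the pairs as a block, or in WT cells alone, and leaving out any 1 pair left 0 or 1. Both comparisons share the libraries without inhibitor, so the values of CPT and ICRF193 are not independent.

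No antisense transcript was called for TNFα in WT cells. Of 287 tested, 0 rose and 0 fell by edgeR and by DESeq2, with 12 and 1 at an unadjusted p under 0.05, against 0.613% raised and 0.0292% lowered of all 13707 genes tested. The lowest adjusted p belonged to *ST3GAL4-AS1* (0.96 ± 0.26, SE, adjusted p = 0.16), which passed when genes with low counts were kept (1 raised). Its reads in WT cells were 24, 11 and 17 at 0 h and 30, 36 and 35 at 1 h, without inhibitor, with CPT and with ICRF193. *CFLAR-AS1*, inside the gene of an apoptosis inhibitor, had 19, 15 and 20 reads at 0 h and 32, 26 and 26 at 1 h in the same order, with a TNFα value of 0.65 ± 0.27 (SE, adjusted p = 1.0). It was higher at 1 h in 3 of 3 pairs and did not pass. Of 285 sense genes, 2 rose. *OVOL1*, the gene of an epithelial transcription factor, rose by 0.39 ± 0.07 (SE, adjusted p = 0.00387), and *OVOL1-AS1* had too few reads for the test. *SLC25A25*, a mitochondrial carrier gene, rose by 0.27 ± 0.06 (SE, adjusted p = 0.0149), with *SLC25A25-AS1* at −0.05 ± 0.15 (SE, adjusted p = 1.0). The TNFα effect differed between cell lines for 0 of 312 antisense transcripts by edgeR and by DESeq2 (17 and 2 at an unadjusted p under 0.05), against 0.228% of all 14459 genes tested.

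Between the cell lines, 28 of 287 antisense transcripts were higher and 12 lower in p65-deficient than in WT cells (9.76% and 4.18%), against 15.2% and 16.9% of all 13730 genes tested. DESeq2 called 13 and 6, the fit without the pairs as a block 11 and 3, and leaving out the pair without inhibitor at 1 h left 14 higher and 11 lower. Without the pair with ICRF193 at 1 h it was 18 and 6, and without the pair without inhibitor at 0 h 26 and 6. Clone 32 is 1 clone, so p65 deficiency and other differences of the clone cannot be told apart. The largest differences were *SNAI3-AS1* (1.14 ± 0.21, SE, adjusted p = 0.000994), *ZBTB20-AS1* (0.98), *TNRC6C-AS1* (0.89 ± 0.19, SE, adjusted p = 0.00343), *TMEM51-AS1* (0.88), *PROSER2-AS1* (0.87), *PPP1R26-AS1* (0.84 ± 0.18, SE, adjusted p = 0.00331), *CFLAR-AS1* (−0.83), *ATP6V0E2-AS1* (0.76), *BOLA3-AS1* (0.73) and *SLC7A11-AS1* (0.68). *SNAI3-AS1* had 8.53, 4.87, 18.9 and 15.3 normalized counts without inhibitor, and with CPT 19.9, 19, 38.2 and 36.7, higher in the p65-deficient library at both times. *CFLAR-AS1* was lower together with *CFLAR* (−0.25, adjusted p = 0.0145). The WT and p65-deficient libraries differ in depth. Of the 10 named, *TNRC6C-AS1*, *PPP1R26-AS1* and *ATP6V0E2-AS1* passed both in DESeq2 and without the block, *SNAI3-AS1* passed in DESeq2 alone, *TMEM51-AS1* and *CFLAR-AS1* without the block alone, and the other 4 in neither.

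The CPT change was more positive in p65-deficient cells for 1 of 313 antisense transcripts and more negative for 5, against 2.39% and 2.38% of all 14573 genes tested, and DESeq2 called 0. The 6 are described with the results singled out for a closer look.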

How the data were processed

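Total RNA of 12 HCT116 libraries was sequenced with a stranded kit, trimmed with Trimmomatic and aligned to hg19 with STAR by the authors. The deposited counts are whole reads per gene, made by the authors with featureCounts version 1.5.0 on exons, per the file headers. The recorded command has no strand option and leaves out reads on exons of several genes. Between 8101212 and 22051046 reads were counted per library, and low counts limit the precision. Members and gene lists were chosen with earlier results of these data known.

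Each comparison was fitted over the whole table in edgeR 4.0.16 (quasi-likelihood, TMM, filterByExpr) under R 4.3.3, with the pair of libraries as a block, since no condition has a replicate, and p-values were Benjamini-Hochberg adjusted over all genes tested with a threshold of 0.05. The pairs come from the design, as libraries alike in all but the factor tested. SE is the log2 fold change divided by the square root of F. DESeq2 1.42.0 gave size factors and an alternative test. Single ratios carry exact Clopper-Pearson 95% intervals for counting error. The tests were checked on simulated data. Differences between antisense transcript and sense gene were taken per pair on normalized counts, without a pseudocount.

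Transcripts named are the 10 with the highest level per kilobase, the 10 raised and the 10 lowered most by CPT past the threshold with a mean of 20 reads and 1 direction in all 4 pairs, all called for ICRF193, TNFα or an interaction, the 10 with the largest difference between cell lines, the 5 couples at each end of the antisense minus sense difference with a mean of 20 reads on both sides, and *SMC2-AS1* and *COL18A1-AS2*. Others are named as examples chosen after their values were seen. Alternatives were another size factor, other filters on low counts, DESeq2, no block, each pair left out in turn and higher minimum reads. WT cells alone, transcripts with 20 reads without CPT and those outside genes of the other strand were added after seeing the data. RefSeq sequences are of GRCh38.p14 and were not joined to hg19 coordinates.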

Additional observations from a re-analysis of the deposited data

Results flagged for a closer look

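For 6 antisense transcripts the log2 fold change with CPT differed between the cell lines by an interaction term in edgeR, given here as p65-deficient minus WT, with values at 0 h and 1 h of TNFα. *MAFG-AS1*, at the gene of a small MAF transcription factor, went from 139 and 127 normalized counts without inhibitor to 139.5 and 169 with CPT in WT cells, and from 181 and 184 to 130.3 and 129 in p65-deficient cells, a difference of −0.71 ± 0.19 (SE, adjusted p = 0.0353). For *MAFG* it was 0.65 (adjusted p = 0.00097), of the opposite sign. *USP46-AS1* went from 15.1 and 13 normalized counts without inhibitor to 44 and 53.3 with CPT in WT cells, and from 30.9 and 32.3 to 35.9 and 54.1 in p65-deficient cells, a difference of −1.38 ± 0.38 (SE, adjusted p = 0.0453). Its level without inhibitor was higher in both p65-deficient libraries than in both WT libraries.

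*THAP9-AS1*, one of the most abundant of these transcripts, went from 963 and 1009 normalized counts without inhibitor to 950.2 and 924 with CPT in WT cells, and from 824 and 1049 to 652 and 686 in p65-deficient cells, a difference of −0.40 ± 0.11 (SE, adjusted p = 0.0414). *OTUD6B-AS1* went from 385 and 421 normalized counts without inhibitor to 602 and 532 with CPT in WT cells, and from 449 and 529 to 408 and 548 in p65-deficient cells, a difference of −0.57 ± 0.13 (SE, adjusted p = 0.0181). *PSMD5-AS1*, at the gene of a proteasome assembly chaperone, went from 51.9 and 41.4 normalized counts without inhibitor to 76.4 and 76.6 with CPT in WT cells, and from 66.6 and 68 to 57 and 59.4 in p65-deficient cells, a difference of −0.95 ± 0.26 (SE, adjusted p = 0.0435). All 3 rose less or fell more in the p65-deficient clone.

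*SLC25A25-AS1* alone had a more positive change in p65-deficient cells, from 71.5 and 64.9 normalized counts without inhibitor to 37.4 and 39.4 with CPT in WT cells, and from 36.5 and 27.2 to 57.7 and 29.7 in p65-deficient cells, a difference of 1.34 ± 0.31 (SE, adjusted p = 0.0171), and for *SLC25A25* it was 0.52 (adjusted p = 0.00904). None of the 6 calls held in DESeq2, which called 0 of 313 (6 at an unadjusted p under 0.05 against 44 in edgeR), or without the pair as a block, and each cell line gives 2 pairs of 1 clone or line.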

How the results depend on the processing

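The pair of libraries entered each fit as a replicate block. Of 137 transcripts raised by CPT, the count was 104 in DESeq2, 127 without the replicate block and 121 to 135 with a pair left out. It was 82 with at least 50 reads in a library, 88 with 20 reads without CPT and 44 outside genes of the other strand, all smaller sets. Of 28 lowered, it was 15 in DESeq2, 21 without the replicate block and 19 to 27 with a pair left out, and 18 and 3 in the sets with 50 reads and outside genes. For ICRF193, 2 lowered became 0 in DESeq2, without the replicate block and in WT cells, 1 with 50 reads and 0 to 1 with a pair left out, and 0 raised became 0 to 2 with a pair left out. For TNFα in WT cells, 1 rose without a filter on low counts, and for its difference between cell lines 1 did without the filter and 0 to 1 with a pair left out. Between cell lines, 28 higher became 13 in DESeq2, 11 without the replicate block and 14 to 31 with a pair left out (14 without the pair without inhibitor at 1 h), and 12 lower became 6, 3 and 6 to 12 (6 without the pair with ICRF193 at 1 h or without inhibitor at 0 h). For the CPT difference between cell lines, 1 more positive and 5 more negative became 0 and 0 in DESeq2 and without the replicate block, 4 more positive without the filter, and 0 to 7 and 2 to 10 with a pair left out. The antisense minus sense median of 0.55 was 0.75 in couples whose exons do not overlap, 0.30 with 20 reads without CPT and 0.40 with a mean of 20 reads on both sides. With 20 reads without CPT the class medians were 0.36 (divergent), 0.48 (5′ ends) and −0.060 (inside, reversed from 0.25), and with a pair left out that of the 3′ class was 0.031 to 0.099. The cause of these changes was not tested, except that smaller sets hold fewer transcripts. Of 50 named CPT values, 46 kept direction and side of the threshold in DESeq2 and 46 without the replicate block, and none of the named values changed direction. DESeq2 gave no adjusted p to 181 transcripts for ICRF193 and 196 for the CPT difference between lines, and transcripts near 20 reads have wide counting error.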
